A study of Mus musculus with 6 samples.

Results

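Parp14, Parp10, Parp9, Parp12, Parp11, Parp1, Parp2, Parp3 and Parp8, all genes of the PARP family of ADP-ribosyltransferases, were examined together with Dtx3l, which encodes the ubiquitin ligase partner of PARP9. The 10 genes were picked by name with the WT against Irf1-/- comparison of these libraries in view and were thus partly selected on their genotype difference. For that reason their genotype differences are given below as a description, with no p for any of them. How many of them passed the threshold is stated beside the share of all genes that did, and supports nothing. All 10 were among the 41388 genes of the table, and 9 of them were among the 11379 genes tested, whose normalized counts averaged 10 or more over the libraries. The exception was Parp12. The cells were T cells of C57BL/6 background, either WT or IRF1-deficient, with 3 cultures per genotype and mRNA measured by RNA-Seq. They had been taken from spleen and lymph nodes by magnetic negative selection, and the study's methods describe them as naive CD4+ T cells. Both genotypes received IL-4 and TGF-β, the cytokines of the Th9 condition, together with IL-2. Both also received IFN-γ for the 2 days of culture, so that no culture without IFN-γ was compared here. Per the study's methods, cells in such cultures were primed with antibodies against CD3 and CD28. An antibody against mouse IFN-γ was also present, and the added IFN-γ was of rat origin. The IRF1-deficient cells came from Irf1-/- mice, not from a deletion limited to T cells. The study describes the samples as independent biological samples. The labels do not say which mouse gave which culture, so that the spread between cultures may be in part technical.

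PARP enzymes transfer ADP-ribose from NAD onto proteins and nucleic acids. PARP1 and PARP2 build long poly(ADP-ribose) chains at broken DNA, whereas most other members attach a single unit or lack activity. Several of the mono-ADP-ribosylating members, together with PARP9 and its partner DTX3L, are known as interferon-stimulated genes, and IRF1 is a transcription factor that IFN-γ induces. PARP14 is also known in T cells as a cofactor of STAT6, the factor activated by IL-4.

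The libraries held between 5639788 and 13348230 reads on genes, and replicate 3 was the largest library of each genotype. Values are normalized counts, that is, reads on a gene after division by the size factor of the library, and 3 reads were worth between 1.84 and 4.16 of them. Irf1 itself kept 58.4% of its WT level in Irf1-/- libraries, with normalized counts of 2968, 2907 and 2660 in WT and 1780, 1729 and 1476 in Irf1-/- cells. These are reads over the whole gene, so that they do not by themselves show the deletion, and reads within the deleted part were not analysed here. WT replicates 1 and 2 held Y-linked transcripts, with a summed normalized count of 2301 and 2306, and the other 4 libraries held between 0 and 11.1. All 3 Irf1-/- libraries and WT replicate 3 held Xist at 16974 or more, so that the libraries of male character were both in the WT group. The 7 CD4 T cell markers summed to between 15131 and 15563 in WT and between 14658 and 15032 in Irf1-/- libraries. These ranges did not overlap. In the test across all genes described below, Cd3e was lower (log2 fold change -0.30, adjusted p = 0.00535, limma), and none of the 7 was higher. The 7 myeloid markers summed to between 21.2 and 149 in WT and between 15.98 and 993 in Irf1-/- libraries. Irf1-/- replicate 2 had the highest value, and Irf1-/- replicate 1, at 209, was also above every WT library. The sums were between 32.4 and 41.2 in WT and between 20.3 and 30.7 in Irf1-/- cells for 2 CD8 markers, and between 18.7 and 26.4 against between 21.7 and 37.4 for 5 B cell markers. The 3 NK markers summed to at most 5.55, with 2 of them at 0 in every library. For the members that differed most, values without the Y-linked libraries and without Irf1-/- replicate 2 are given beside the result. A fit without the Y-linked libraries has WT replicate 3 as the only WT library, which is assumed to vary like the Irf1-/- libraries, so that a call lost there can come from the smaller sample alone. In bulk RNA, fewer cells of a type and less RNA per cell cannot be told apart.

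Promoter sequences show what lies upstream of these genes. RefSeq promoter windows of GRCm38.p6, from 250 bases before to 50 after the annotated start, matched 7 of the 10 genes, and Parp9, Parp10 and Parp14 were without an entry. Each window was searched on both strands for an IRF core, GAAANNGAAA, and a STAT core, TTCNNNGAA, where N is any base. The 250 bases before the start are shown 5′ to 3′ on the strand of the gene for 3 genes. Parp11 is shown as the gene whose window held both motifs, in capitals. Dtx3l is shown because its start lies inside the Parp9 gene. Parp1 is shown as a gene whose values overlapped between the genotypes. The windows are at chr6:127446590-127446839 (+ strand) for Parp11, chr16:35939028-35939277 (− strand) for Dtx3l and chr1:180568641-180568890 (+ strand) for Parp1.
Parp11: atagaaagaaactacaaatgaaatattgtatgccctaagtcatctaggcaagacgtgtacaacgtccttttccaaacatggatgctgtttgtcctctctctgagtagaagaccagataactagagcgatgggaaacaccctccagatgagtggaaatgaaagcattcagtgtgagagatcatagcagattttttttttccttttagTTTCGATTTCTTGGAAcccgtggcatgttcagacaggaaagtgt
Dtx3l: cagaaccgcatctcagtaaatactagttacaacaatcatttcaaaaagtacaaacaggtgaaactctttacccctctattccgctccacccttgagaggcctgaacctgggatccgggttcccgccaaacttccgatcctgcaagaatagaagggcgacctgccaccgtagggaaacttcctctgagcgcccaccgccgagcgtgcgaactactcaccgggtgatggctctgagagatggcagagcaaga
Parp1: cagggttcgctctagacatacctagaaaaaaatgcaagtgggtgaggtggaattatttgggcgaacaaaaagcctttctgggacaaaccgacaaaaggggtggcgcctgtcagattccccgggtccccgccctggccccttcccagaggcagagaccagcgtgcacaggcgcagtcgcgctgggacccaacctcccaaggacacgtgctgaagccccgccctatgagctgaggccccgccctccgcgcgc

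In the Parp11 window, the IRF core lay on the opposite strand, as GAAATCGAAA, from base -44 to base -35 before the start. The STAT core TTCTTGGAA followed from base -37 to base -29, so that the motifs shared 3 bases. A second Parp11 window, around a start further downstream, held neither motif, and neither did the windows of Parp1, Parp2, Parp3, Parp8, Parp12 and Dtx3l. Absence says only that these letters are not in the windows searched. Among all 32851 promoter windows, 3.44% held the IRF core and 8.30% the STAT core, and among the 11204 windows of tested genes 3.03% and 6.92% did. Of the tested genes, among the 1366 windows of genes lower in Irf1-/- cells the shares were 5.34% and 7.91%, and among the 1320 windows of genes higher in Irf1-/- cells they were 2.12% and 7.20%.

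The members linked to interferon had lower normalized counts in Irf1-/- than in WT Th9 cells. Relative to the WT level, Parp14 and Parp10 differed most, Dtx3l and Parp9 less and Parp11 least of these 5. The DNA damage members Parp1, Parp2 and Parp3 had overlapping values. Of the 9 tested members, 6 were lower at an adjusted p below 0.05 in limma with Benjamini-Hochberg adjustment over all genes, where 12.4% of all tested genes were lower and 11.4% higher. None of the 9 was higher, also at an unadjusted p below 0.05 and in edgeR and DESeq2, and DESeq2 called 5 lower. For the same 6 genes every Irf1-/- value was below every WT value, where 20.9% of all tested genes were lower and 19.7% higher without overlap. The genes had been chosen with this comparison known, and nothing is read from these counts. The median log2 fold change (log2FC, Irf1-/- against WT on the log2 scale of the normalized count plus 1) of the 9 was -0.73, that of all tested genes was -0.00, and the median standard error over all tested genes was 0.10.

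**Figure D1:**
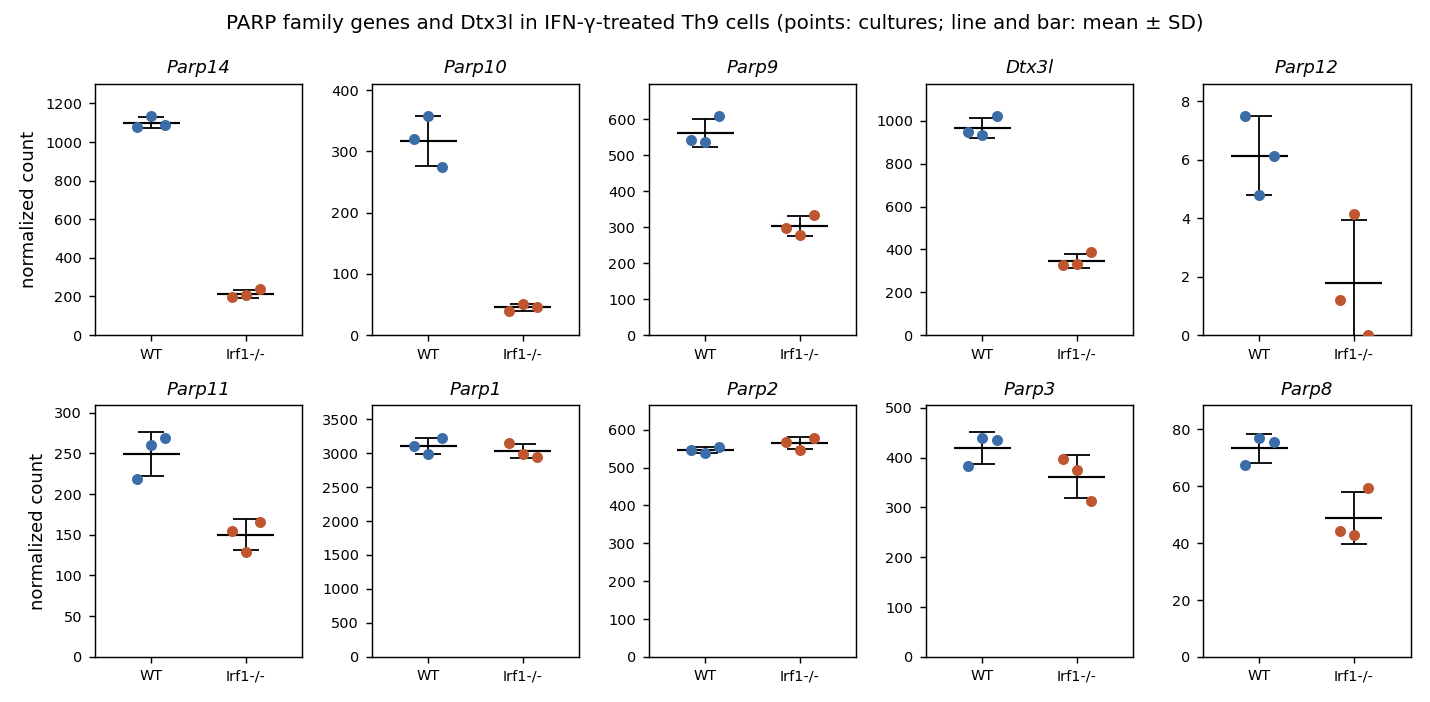
Normalized counts of the 10 genes in each culture, with 1 panel per gene, a y axis from 0 and its own scale in each panel; points are cultures, and the line and bar are the mean and SD of 3 cultures (the lower bar of Parp12 in Irf1-/- cells is cut off at 0). The genotypes are separated for Parp14, Parp10, Parp9, Dtx3l, Parp12, Parp11 and Parp8 and overlap for Parp1, Parp2 and Parp3.

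Parp14 (ENSMUSG00000034422, GRCm38 chromosome 16 from 35832874 to 35871544, − strand) encodes a mono-ADP-ribosyltransferase with macrodomains, modules that bind ADP-ribose. Its normalized counts were 1077, 1132 and 1090 in WT and 196, 209 and 236 in Irf1-/- cells. The WT cultures lay close together, and each Irf1-/- culture was far below the lowest of them. The mean was 1100 ± 28.9 (SD, n = 3) in WT against 214 ± 20.7 (SD, n = 3) in Irf1-/- cells, which left 19.4% of the WT level. The log2FC was -2.36 (standard error, SE, 0.0805), placing Parp14 at rank 36 from the lowest of the 11379 genes. It was -2.35 without the Y-linked libraries, and also -2.35 without Irf1-/- replicate 2.

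Parp10 (ENSMUSG00000063268, chromosome 15 from 76231174 to 76243441, − strand), which encodes a mono-ADP-ribosyltransferase first known as a MYC partner, had the lowest log2FC of the 9. It was measured at 319.5, 357 and 274 in WT and at 39.4, 51.3 and 46.0 in Irf1-/- cells. The spread among WT cultures was wider than for Parp14, yet the gap between genotypes was wider than the whole spread of either. Means of 317 ± 41.5 (SD, n = 3) and 45.6 ± 5.97 (SD, n = 3) gave a log2FC of -2.77 (SE 0.142), with 14.4% of the WT level left and rank 27 of all genes tested. Without the Y-linked libraries the log2FC was -2.57, and without Irf1-/- replicate 2 it was -2.86. Parp10 shares 205 exon bases, 4.80% of its exon length, with Plec on the same strand, and reads there cannot be assigned to 1 of the genes by position alone. Plec, which encodes the cytoskeletal linker plectin, had the opposite direction, with values given among the neighbours.

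Parp9 and Dtx3l are neighbours on chromosome 16 with 682 bases in common between their gene bodies, and their products bind each other. Parp9 (ENSMUSG00000022906, from 35938470 to 35972605, + strand) encodes a macrodomain protein, and Dtx3l (ENSMUSG00000049502, from 35926511 to 35939151, − strand) a ubiquitin ligase of the Deltex family. Parp9 was measured at 543, 537 and 607 in WT and at 298.5, 279 and 334 in Irf1-/- cells. Dtx3l was measured at 947, 937 and 1021 in WT and at 327, 331.5 and 386 in Irf1-/- cells. In both genotypes replicate 3 had the highest value of both genes, and no Irf1-/- culture reached the WT range. The Parp9 mean of 563 ± 38.9 (SD, n = 3) in WT stood against 304 ± 27.8 (SD, n = 3), a log2FC of -0.89 (SE 0.0876) with 54.0% of the WT level left. For Dtx3l the means were 968 ± 46.0 (SD, n = 3) and 348 ± 32.8 (SD, n = 3), a log2FC of -1.48 (SE 0.0795) with 36.0% left. Parp9 thus kept a larger part of its WT level than its partner did. Without the Y-linked libraries the log2FC values were -1.002 for Parp9 and -1.55 for Dtx3l, and without Irf1-/- replicate 2 they were -0.83 and -1.44. Exons of the pair overlap by 458 bases on opposite strands, 9.40% of the exon length of Parp9 and 8.00% of that of Dtx3l. Whether the counting used strand is not given in the sources used here, so that reads from this stretch are uncertain for both.

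The same values are restated as ratios of normalized counts within each library, which show the unequal difference culture by culture. Dtx3l to Parp9 stood at 1.74, 1.74 and 1.68 in WT and at 1.10, 1.19 and 1.16 in Irf1-/- libraries. Parp14 to Parp9 stood at 1.98, 2.11 and 1.80 in WT and at 0.656, 0.751 and 0.709 in Irf1-/- libraries. Parp14 to Dtx3l stood at 1.14, 1.21 and 1.07 in WT and at 0.599, 0.632 and 0.613 in Irf1-/- libraries. All 3 ratios, of which any follows from the others, were lower in every Irf1-/- library than in any WT library. The ratios are not corrected for gene length and are comparable only between libraries. The ratio of Parp2 to Parp1, taken the same way, was between 0.172 and 0.181 in WT and between 0.180 and 0.196 in Irf1-/- libraries.

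**Figure D2:**
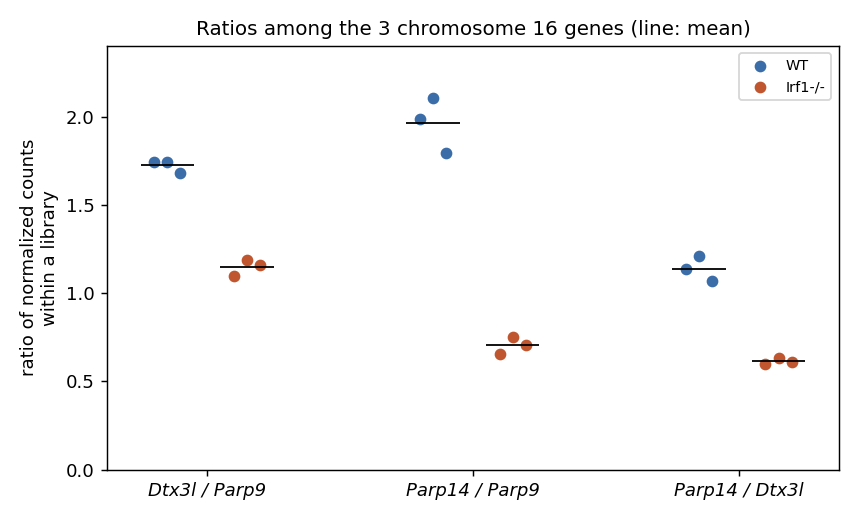
Ratios of normalized counts within a library (y axis, linear from 0) among the 3 chromosome 16 genes; points are libraries, coloured by genotype, and lines are means of 3 libraries. Dtx3l to Parp9 lies between 1.68 and 1.74 in WT and between 1.10 and 1.19 in Irf1-/- libraries, and no ratio has overlapping libraries.

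Parp14 lies 54966 bases from Dtx3l, and Parp14, Dtx3l and Parp9 together span 139732 bases. The nearest tested genes on either side had other values. Hspbap1 was measured at 184 ± 20.2 (SD, n = 3) in WT against 173 ± 16.6 (SD, n = 3) in Irf1-/- cells, a log2FC of -0.09 (adjusted p = 0.635, limma). Kpna1, which encodes an importin subunit, was measured at 898 ± 66.6 (SD, n = 3) and 859 ± 88.5 (SD, n = 3), a log2FC of -0.07 (adjusted p = 0.607, limma). Neither Dirc2, at 0.12 on the log2 scale, nor the antisense gene Gm15564, at 0.24, passed the test (adjusted p = 0.737 and 0.735). Gm15564 overlaps the Parp9 gene body on the opposite strand and varied widely, from 92.9 to 371 among the Irf1-/- cultures.

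**Figure D3:**
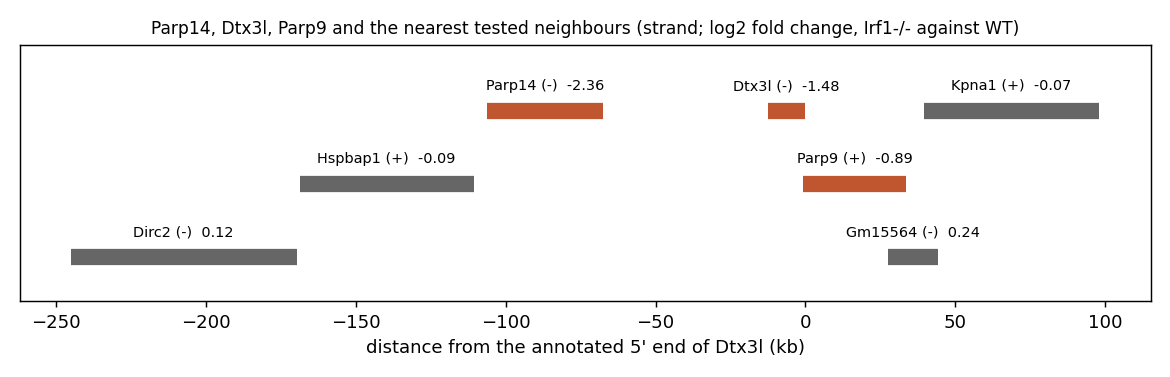
Gene bodies around Dtx3l on chromosome 16, to scale, by distance in kilobases from the 5′ end of Dtx3l (x axis), with strand and log2FC; the vertical position only separates labels. Parp14, Dtx3l and Parp9 (orange) stand at -2.36, -1.48 and -0.89, and the 4 neighbours (grey) between -0.09 and 0.24.

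Parp12 and Parp11 are the other members linked to interferon. Parp12 (ENSMUSG00000038507, chromosome 6 from 39086410 to 39118349, − strand), which encodes a zinc finger mono-ADP-ribosyltransferase with known antiviral activity, was close to the limit of detection. It had 6, 4 and 10 reads in WT and 1, 3 and 0 reads in Irf1-/- libraries, which are normalized counts of 7.49, 4.81 and 6.15 and of 1.19, 4.16 and 0. All Irf1-/- values lay below all WT values, though by less than 1 read for the closest pair. Over the groups 20 reads stood against 4, too few to give a fold. Parp11 (ENSMUSG00000037997, chromosome 6 from 127446840 to 127494261, + strand), which encodes a mono-ADP-ribosyltransferase with a WWE domain, was measured at 218, 260 and 269 in WT and at 155, 129 and 166 in Irf1-/- cells. The highest Irf1-/- culture was below the lowest WT culture. Means of 249 ± 26.8 (SD, n = 3) and 150.1 ± 19.1 (SD, n = 3) gave a log2FC of -0.73 (SE 0.123) with 60.3% of the WT level left. It was -0.84 without the Y-linked libraries and -0.62 without Irf1-/- replicate 2.

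The DNA damage members behaved otherwise. Parp1 (ENSMUSG00000026496, chromosome 1 from 180568924 to 180601254, + strand), the main poly(ADP-ribose) polymerase, was measured at 3104, 2983 and 3219 in WT and at 3150, 2993 and 2944 in Irf1-/- cells. The ranges of Parp1 overlapped, with a log2FC of -0.03 (SE 0.0526). It was 0.01 over replicates 1 and 2, -0.13 for replicate 3 alone and -0.09 without the Y-linked libraries. Parp2 (ENSMUSG00000036023, chromosome 14 from 50807841 to 50821301, + strand), its relative in DNA strand break repair, was measured at 547, 539.8 and 555 in WT and at 567, 546 and 578 in Irf1-/- cells. Here too the ranges overlapped, and the log2FC was 0.04 (SE 0.0624). Parp3 (ENSMUSG00000023249, chromosome 9 from 106470322 to 106476949, − strand), which acts in double-strand break repair, was measured at 383, 439 and 436 in WT and at 396, 376 and 313 in Irf1-/- cells. Its ranges overlapped through WT replicate 1 and Irf1-/- replicate 1, with a log2FC of -0.22 (SE 0.1004). This value differed between replicates, at -0.09 over replicates 1 and 2 and -0.48 for replicate 3 alone.

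Parp8 (ENSMUSG00000021725, chromosome 13 from 116854820 to 117025537, − strand), a mono-ADP-ribosyltransferase whose role is little known, was measured at 67.4, 76.9 and 75.6 in WT and at 44.2, 43.0 and 59.4 in Irf1-/- cells. Irf1-/- replicate 3 came close to WT replicate 1, and the other Irf1-/- cultures were well below. The means were 73.3 ± 5.17 (SD, n = 3) and 48.9 ± 9.17 (SD, n = 3), a log2FC of -0.59 (SE 0.173). It was -0.65, -0.55 and -0.57 without WT replicate 1, 2 or 3 in turn, -0.52, -0.51 and -0.73 without Irf1-/- replicate 1, 2 or 3, and -0.63 without the Y-linked libraries. With 1 library left out, other than Irf1-/- replicate 3, Parp8 was not among the genes below the threshold. The count of 6 given above thus depended on single libraries.

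Levels of different genes were compared as normalized counts per kilobase of exon. In WT cells Parp1 was highest at 586 ± 22.3 (SD, n = 3), followed by Dtx3l at 169 ± 8.04 and Parp2 at 151 ± 2.11. Parp14 at 118 ± 3.11, Parp9 at 115 ± 7.98 and Parp3 at 113 ± 8.47 came next and did not differ beyond their spread. Parp10 at 74.1 ± 9.71, Parp11 at 35.4 ± 3.81, Parp8 at 8.25 ± 0.582 and Parp12 at 1.54 ± 0.335 closed the order. In Irf1-/- cells the order began with Parp1 at 572 ± 20.3, Parp2 at 155 ± 4.39 and Parp3 at 97.7 ± 11.8. Parp9 at 62.3 ± 5.70 and Dtx3l at 60.8 ± 5.73 did not differ beyond their spread, whereas Dtx3l was above Parp9 in WT cells. Parp14 at 23.0 ± 2.22 and Parp11 at 21.4 ± 2.72 were likewise within their spread, and Parp10 was at 10.7 ± 1.40, Parp8 at 5.50 ± 1.03 and Parp12 at 0.447 ± 0.536. The relative spread between cultures was smallest for Parp2, with a coefficient of variation of 1.40% in WT and 2.82% in Irf1-/- cells. It was 13.1% in both genotypes for Parp10 and, among tested members, highest for Parp8 in Irf1-/- cells at 18.8%.

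Patterns over the 6 libraries were compared by Pearson's r of the log2 values, as a description, since the points share the genotype split and the libraries. The 4 tested genes most like Parp14 were Katna1, Gm43302, Eml4 and Iigp1, each with r = 0.999 over 6 libraries. Among the members, Dtx3l was at rank 9 with r = 0.997, Parp10 at rank 22 with r = 0.995 and Parp9 at rank 111 with r = 0.983. The 4 most like Parp9 were Usp1 with r = 0.998 and Serpinb9, Nr4a3 and Ruvbl1 with r = 0.997, and Dtx3l was at rank 19 with r = 0.994. After the genotype means were removed, Parp9 and Dtx3l had r = 0.912 over the 6 libraries, at rank 722 of 11378 genes. Many genes therefore followed Parp9 within genotypes as closely as Dtx3l did.

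None of the 7 other genes of the PARP family was called lower. In limma, 1 of them was higher in Irf1-/- cells and 0 were lower, with 3 higher and 0 lower at an unadjusted p below 0.05, and the median log2FC was 0.18. edgeR also called 1 higher and 0 lower, and DESeq2 called 0 in either direction. Among all tested genes 12.4% were lower and 11.4% higher in limma, and each list below stands beside the same shares. Parp16, whose product sits in the endoplasmic reticulum membrane and takes part in the unfolded protein response, rose from 19.97, 24.0 and 22.7 in WT to 33.4, 38.8 and 43.5 in Irf1-/- cells. The groups did not overlap, and the log2FC was 0.76 (SE 0.213, adjusted p = 0.0259, limma). The call was lost in 9 of 17 alternatives while the log2FC moved little. It was 0.69 without WT replicate 1 (adjusted p = 0.0844), 0.82 without WT replicate 2 (0.0529), 0.75 without Irf1-/- replicate 2 (0.0739), 0.68 without Irf1-/- replicate 3 (0.0813) and 0.73 without the Y-linked libraries (0.198).

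Zc3hav1, which encodes the antiviral RNA-binding protein ZAP, an interferon-stimulated member without transferase activity, was measured at 2575 ± 208 (SD, n = 3) in WT against 2920 ± 184 (SD, n = 3) in Irf1-/- cells. Its log2FC of 0.18 missed the threshold (adjusted p = 0.0816, limma) and passed it without WT replicate 3 (log2FC 0.24, adjusted p = 0.0140). It also passed with the replicate number as a block, at 0.18 (adjusted p = 0.00554, limma). Without the Y-linked libraries the log2FC of Zc3hav1 was 0.06. Parp4, the PARP of vault particles, was measured at 362 ± 25.0 (SD, n = 3) and 458 ± 89.1 (SD, n = 3), a log2FC of 0.32 (adjusted p = 0.0763, limma). Parp4 likewise passed without WT replicate 3 (log2FC 0.38, adjusted p = 0.0465) and with the replicate block (adjusted p = 0.00230, limma). Its log2FC was 0.17 without Irf1-/- replicate 3 (adjusted p = 0.184) and 0.21 without the Y-linked libraries (adjusted p = 0.517). Neither gene had a lower mean in Irf1-/- cells. The log2FC values were 0.26 for Tiparp, a target of the aryl hydrocarbon receptor, and 0.18 for Parp6 (adjusted p = 0.239 and 0.358, limma). Both values moved with single libraries, Tiparp to 0.13 without Irf1-/- replicate 1, 0.15 without WT replicate 2 and 0.36 without WT replicate 3, and Parp6 to 0.29 and 0.10 without Irf1-/- replicate 1 and 2. Tiparp was 0.06 without the Y-linked libraries (adjusted p = 0.911) and passed the test over replicates 1 and 2 only, at 0.42 (adjusted p = 0.0298). Those of the tankyrase genes Tnks and Tnks2, whose poly(ADP-ribose)-forming products act on telomeres and Wnt signalling, were -0.04 and -0.10 (adjusted p = 0.735 and 0.180, limma).

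**Figure D4:**
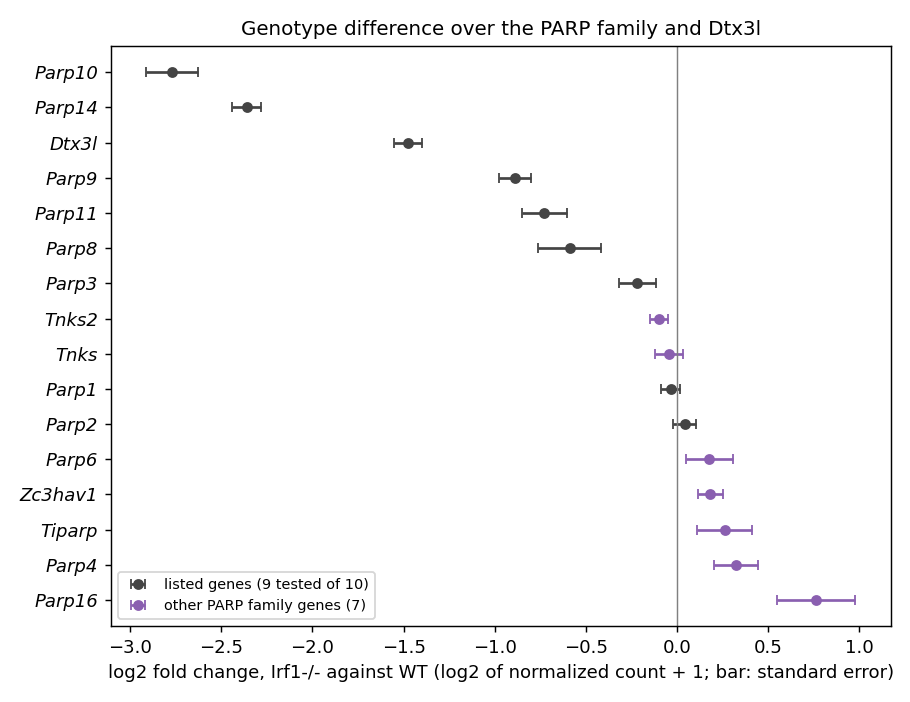
Log2 fold change of Irf1-/- against WT (x axis, from the log2 of the normalized count plus 1) for the 9 tested members (grey) and the 7 other PARP family genes (purple); points are estimates from 3 against 3 cultures and bars their standard errors. Parp10 and Parp14 lie at -2.77 and -2.36, Dtx3l, Parp9, Parp11 and Parp8 between -1.48 and -0.59, and the remaining genes between -0.22 and 0.76.

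The other Deltex genes moved opposite to Dtx3l or did not pass the test, with 2 of 4 higher in Irf1-/- cells and 0 lower in limma, edgeR and DESeq2 and at an unadjusted p below 0.05. Dtx1, a Notch target that encodes a ubiquitin ligase linked to T cell anergy, rose from 39.9, 44.5 and 38.1 in WT to 156, 133 and 126 in Irf1-/- cells. Every Irf1-/- culture was well above every WT culture, and the log2FC was 1.73 (SE 0.147, adjusted p = 3.24e-05, limma). The call was kept in all 18 alternatives. Dtx3 rose from 376 ± 8.35 (SD, n = 3) to 502 ± 30.4 (SD, n = 3), a log2FC of 0.42 (adjusted p = 0.00262, limma), with an adjusted p = 0.0620 without the Y-linked libraries at nearly the same size, 0.41. Dtx2 and Dtx4 had log2FC values of 0.01 and 0.08 (adjusted p = 0.960 and 0.724, limma).

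Of the 12 tested genes that remove or read ADP-ribose, 1 was lower and 2 were higher, beside 12.4% and 11.4% of all tested genes. The median log2FC was 0.04. DESeq2 called 1 lower and 0 higher. Parg, which encodes the hydrolase that takes poly(ADP-ribose) chains apart, fell from 683, 698.5 and 601 in WT to 529, 510.4 and 522 in Irf1-/- cells. The Irf1-/- cultures lay close together below all WT cultures, with a log2FC of -0.34 (adjusted p = 0.00773, limma). Parg came closest to the Irf1-/- range in WT replicate 3, the WT library without Y-linked transcripts, and against that library alone the log2FC was -0.21 (adjusted p = 0.269). Macrod1 and Macrod2 encode macrodomain enzymes that remove single ADP-ribose units. Macrod1 rose from 54.9 ± 8.24 (SD, n = 3) to 81.9 ± 5.67 (SD, n = 3), a log2FC of 0.58 (adjusted p = 0.0244, limma). Macrod2 rose from 8.38 ± 0.374 (SD, n = 3) to 18.7 ± 4.94 (SD, n = 3), a log2FC of 1.04 (adjusted p = 0.0379, limma). Its WT mean lay below 10, so that Macrod2 entered the test only through its Irf1-/- values, which bears on its call. Both calls depended on several single libraries. That for Macrod1 was lost without WT replicate 1 (adjusted p = 0.0916), Irf1-/- replicate 1 (0.0711) or Irf1-/- replicate 2 (0.0894). That for Macrod2 was lost without WT replicate 1 (0.0828), 2 (0.0902) or 3 (0.0706) or Irf1-/- replicate 1 (0.149) or 2 (0.0872), and both were lost without the Y-linked libraries (0.130 and 0.196) at log2FC values of 0.60 and 1.10. With the single libraries left out where the calls were lost, the log2FC ran from 0.48 to 0.57 for Macrod1 and from 0.85 to 1.06 for Macrod2. Adprh, which encodes a hydrolase of ADP-ribosylated arginine, had a log2FC of 0.20 (adjusted p = 0.0681, limma), which was 0.28 without WT replicate 3 (0.00476) and 0.04 without the Y-linked libraries (0.851). Nudt16 had a log2FC of -0.46 (adjusted p = 0.0689, limma), which was -0.57 without Irf1-/- replicate 3 (0.0404) and -0.30 without the Y-linked libraries (0.524).

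NAD is the substrate of the ADP-ribosyltransferases, and of the 10 tested genes for its supply and use 1 was lower and 3 were higher, with a median log2FC of 0.19, and DESeq2 called 1 lower and 2 higher. Nampt, the rate-limiting enzyme of NAD salvage, fell from 2352, 2291 and 2568 in WT to 1631, 1618 and 1699 in Irf1-/- cells. The gap between the genotypes was wider than the spread within either, and the log2FC was -0.54 (SE 0.0577, adjusted p = 0.000139, limma). The call was kept in all 18 alternatives, at -0.64 without the Y-linked libraries. Cd38, which encodes a surface enzyme that breaks NAD down, rose from 25.0, 15.6 and 32.0 to 65.7, 43.0 and 80.5, a log2FC of 1.36 (adjusted p = 0.00859, limma). Its lowest Irf1-/- value was that of replicate 2, the library richest in myeloid markers, and the cells it came from were not tested. Without the Y-linked libraries the log2FC of Cd38 was 0.91. Nadsyn1, the NAD synthetase, rose from 43.7, 51.7 and 83.6 to 115, 91.5 and 105, a log2FC of 0.84 (adjusted p = 0.0198, limma). WT replicate 3 came closest to the Irf1-/- range, and without replicates 1 and 2 of WT, the Y-linked libraries, the log2FC was 0.30 (adjusted p = 0.430). The Nadsyn1 call was also lost without WT replicate 1 (adjusted p = 0.0755), WT replicate 2 (0.0760) or Irf1-/- replicate 1 (0.0780), at log2FC values of 0.64, 0.76 and 0.76. Nmrk1, a nicotinamide riboside kinase, rose from 64.8 ± 4.62 (SD, n = 3) to 87.6 ± 6.08 (SD, n = 3), a log2FC of 0.43 (adjusted p = 0.0459, limma), and its call was lost when any 1 of the 6 libraries was left out (adjusted p between 0.0716 and 0.124), at log2FC values from 0.37 to 0.48.

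Of the 10 repair partners of PARP1 and PARP2, all tested, 2 were lower and 1 was higher, and the median log2FC was -0.02. DESeq2 called 1 lower and 1 higher. Lig3, a DNA ligase that works with XRCC1, fell from 691 ± 7.22 (SD, n = 3) to 567 ± 23.7 (SD, n = 3), a log2FC of -0.29 (adjusted p = 0.00858, limma). Parpbp, whose product binds PARP1 and restrains homologous recombination, fell from 316 ± 13.8 (SD, n = 3) to 259 ± 6.33 (SD, n = 3), a log2FC of -0.28 (adjusted p = 0.0255, limma). Both changes were small beside those of the interferon-linked members. Without the Y-linked libraries neither Lig3 nor Parpbp passed (adjusted p = 0.150 and 0.349), at log2FC values of -0.27 and -0.22. Parpbp was also lost without WT replicate 1 (adjusted p = 0.103), WT replicate 2 (0.0785), Irf1-/- replicate 1 (0.0539) or Irf1-/- replicate 2 (0.0719), at log2FC values from -0.30 to -0.25. Of the ecto-ADP-ribosyltransferase genes, which act at the cell surface, 5 of 6 were in the table and only Art4 was tested, at a log2FC of 0.12 (adjusted p = 0.862, limma).

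Over all these lists, 44 genes were tested, of which 4 were lower and 9 higher, beside 12.4% lower and 11.4% higher among all tested genes. The median log2FC was 0.07 beside -0.00 for all tested genes. Their extremes were -0.54 for Nampt and 1.73 for Dtx1.

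**Figure D5:**
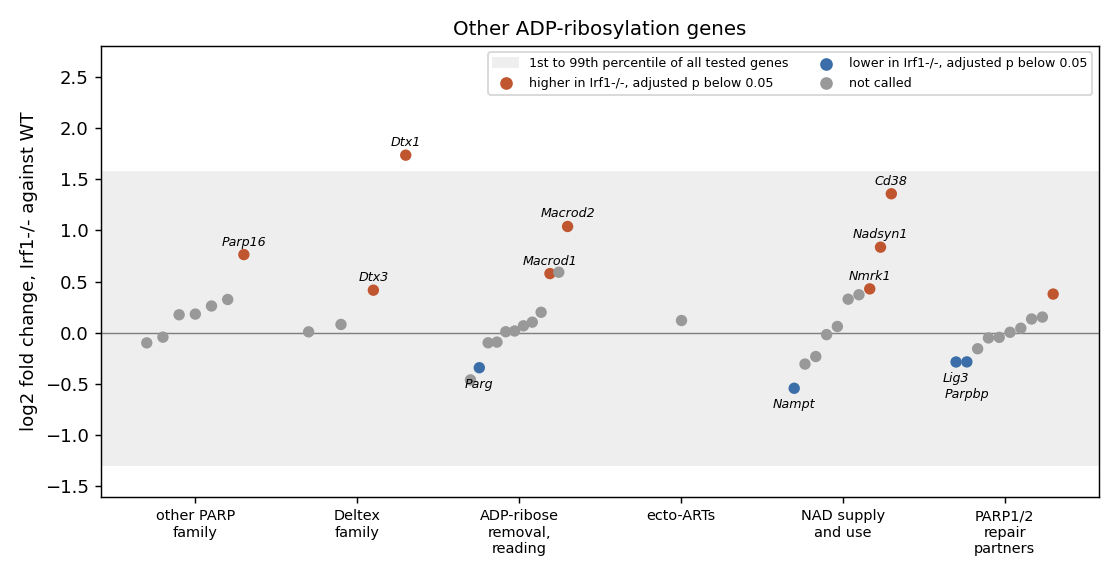
Log2 fold change of Irf1-/- against WT (y axis) for the 44 tested genes of the other ADP-ribosylation lists, grouped by list (x axis); each point is a gene, orange if higher and blue if lower at an adjusted p below 0.05 in limma, grey otherwise, and the shaded band holds the middle of all tested genes, from the 1st to the 99th percentile. Dtx1, at 1.73, is the only point outside the band, and no gene lies below -0.54.

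Across all members, 32 tested neighbours were compared, of which 1 was lower and 5 were higher, beside 12.4% and 11.4% of all tested genes, with a median log2FC of 0.09. Tspan9, a tetraspanin gene 467135 bases from Parp11, rose from 91.8 ± 10.8 (SD, n = 3) to 263 ± 27.9 (SD, n = 3), a log2FC of 1.51 (adjusted p = 2.72e-05, limma) that was kept in all 18 alternatives. On the other side of Parp11 at 294647 bases, Ccnd2, which encodes cyclin D2, fell from 7822 ± 372 (SD, n = 3) to 6741 ± 435 (SD, n = 3), a log2FC of -0.22 (adjusted p = 0.0257, limma). Cracr2a, which lies nearer to Parp11 at 67077 bases, did not pass the test (log2FC -0.31, adjusted p = 0.435, limma). The Ccnd2 call was lost without WT replicate 2 (adjusted p = 0.0864), Irf1-/- replicate 1 (0.0985) or Irf1-/- replicate 2 (0.101), at log2FC values of -0.22, -0.20 and -0.18. Beside Parp10, Plec rose with a log2FC of 0.28 (adjusted p = 0.0352, limma) and Smpd5, a sphingomyelin phosphodiesterase gene, with 1.03 (adjusted p = 0.0104). The Plec call was lost without WT replicate 1 (adjusted p = 0.0510), 2 (0.0555) or 3 (0.0642) or Irf1-/- replicate 1 (0.139) or 2 (0.104), at log2FC values from 0.19 to 0.33. Hipk2, a kinase gene 210245 bases from Parp12, rose with a log2FC of 0.66 (adjusted p = 0.00607, limma), and Pcbp4, an RNA-binding protein gene 6310 bases from Parp3, with 0.43 (adjusted p = 0.00502). Pcbp4 had an adjusted p = 0.0636 without the Y-linked libraries, and Smpd5 and Hipk2 had adjusted p values of up to 0.175 and 0.162 without them or with a covariate for their Y-linked level. Over all alternatives the log2FC ran from 0.40 to 0.48 for Pcbp4, from 0.79 to 1.32 for Smpd5 and from 0.41 to 0.79 for Hipk2. Neighbours that did not pass with all libraries but did when 1 was left out were Rpph1 beside Parp2, lower without Irf1-/- replicate 2 (adjusted p = 0.0363) or WT replicate 3 (0.0380), and Grina, Kdm7a and Tex264, higher without WT replicate 3 (0.0322 and 0.0461) or Irf1-/- replicate 3 (0.0284).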

How the data were processed

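Poly(A) RNA of 3 WT and 3 Irf1-/- cultures was sequenced as single-end reads. Per the labels and the paper's methods, the authors aligned reads to GRCm38 with STAR 2.4.0b, counted them per Ensembl gene with featureCounts and normalized them with DESeq2 1.12.3. The strand setting is not given in the sources used here. The signal deposited for each gene and library is the read count after division by a size factor. Values were whole multiples of 1 step per library, and 100% of values came back as whole reads (tolerance 0.01 of a read).

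From these values, limma 3.58.1 in R 4.3.3 was fitted to the log2 of the normalized count plus 1, with a mean-variance trend, for the 11379 genes averaging 10 or more, and p-values were adjusted over all of these by Benjamini-Hochberg, with a threshold of 0.05. Fold changes of low genes are understated on this scale. Gene positions, exon lengths and overlaps came from the GENCODE annotation of GRCm38, and promoters from RefSeq. The members and the gene lists were chosen with earlier results of these data known. Genes named were the members, the other PARP family genes, called genes of the lists (at most 6 per list) and of the neighbours (the nearest 2 tested genes on each side), the 4 genes most like Parp14 and Parp9, and Irf1, and genes called when 1 library was left out and Cracr2a were added after their values were seen. In a check on simulated data in which 200 of 11379 genes differed, limma recovered 87.5% with 9 false calls. The simulation gave every gene the same dispersion and held no sex or replicate difference. Its rates therefore do not carry over to these libraries. The alternatives tried were adding 0.1 or 10 before the log, filtering at a mean of 50 or not at all, TMM factors, no trend, a replicate block, edgeR 4.0.16 and DESeq2 1.42.0 on recovered reads, each library left out, the Y-linked level as a covariate, and subsets of libraries. Values of 1 called gene of the repair list are not reported here.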

Additional observations from a re-analysis of the deposited data

How the results depend on the processing

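The replicate numbers were not treated as pairs, because same-numbered libraries deviated from their genotype means with correlations of 0.09, 0.27 and 0.32, although every library correlated best with its own number. With the replicate block, Parp4 and Zc3hav1 passed the test at unchanged fold changes of 0.32 and 0.18, 6 of the ADP-ribosylation genes were lower and 12 higher (4 and 9 without the block), and 3 neighbours were lower and 7 higher (1 and 5 without it). The ADP-ribosylation genes called lower numbered 2 with a covariate for the Y-linked level and 1 without the Y-linked libraries, and those called higher numbered 3 and 1, as well as 5 at a mean of at least 50 and 5 in DESeq2. Leaving out 1 library gave between 3 and 5 lower and between 4 and 10 higher. Of the neighbours, 0 were lower without a trend and 0 without the Y-linked libraries, 3 were lower over replicates 1 and 2 only, and 3 and 8 were higher without the Y-linked libraries and over replicates 1 and 2 only. Leaving out 1 library gave between 0 and 2 lower and between 4 and 6 higher neighbours. Tnks changed sign, from -0.04 to 0.018, without Irf1-/- replicate 2, and over the libraries left out in turn its log2 fold change ran from -0.10 to 0.018. The cause of these differences was not tested. Parp12 and most ecto-ADP-ribosyltransferase genes had few reads, so that little can be said of them. Sex is confounded in part with genotype. Calls lost without the Y-linked libraries, a fit with 1 WT library, can also come from fewer samples, which was not tested.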
